A study of Mus musculus with 15 samples.

Results

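The small leucine-rich proteoglycans are a family of secreted matrix proteins, each with a protein core of leucine-rich repeats that in most members carries glycosaminoglycan chains. The 9 genes followed here were chosen by name in the table of normalized counts: *Dcn*, *Bgn*, *Aspn*, *Lum*, *Fmod*, *Prelp*, *Omd*, *Ogn* and *Podn*. They are 9 of the 53465 genes in the table, each name was found once, and all 9 were tested, since tests covered the 25549 genes whose normalized counts averaged 5 or more.

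The libraries were made from cells of B16-F0 tumors, a mouse melanoma cell line, grown in CAG-GFP transgenic mice, in which a ubiquitous promoter drives GFP in host cells but not in the injected tumor cells. Tumors were collected on day 15, and GFP-positive, lineage-negative, CD34-positive cells were sorted by flow cytometry into 3 populations. Endovascular progenitors (EVP) had low CD31 and low VEGFR2, transit amplifying cells (TA) had intermediate CD31 and low VEGFR2, and definitive differentiated cells (D) had high CD31 and high VEGFR2. Each population had 5 libraries, all from untreated hosts with the same tumor line. The study used adult mice of both sexes and gives an age range in weeks for its mice, with a separate range for a lineage tracing line. The age and number of the animals behind each library, and whether libraries of different populations came from the same animals, are not given in the sources used here. GFP marks a host cell of any type, so the sort rests on the surface markers. P-values measure the spread between these libraries.

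Decorin (*Dcn*) and biglycan (*Bgn*) carry chondroitin or dermatan sulfate chains and, with asporin (*Aspn*), form class I of the family. Lumican (*Lum*), fibromodulin (*Fmod*), *Prelp* and osteomodulin (*Omd*) belong to class II, whose chains are mostly keratan sulfate where they are present. Osteoglycin (*Ogn*) is a class III member and podocan (*Podn*) a more distant one. Several of these proteins bind collagen fibrils and set their width and spacing, and decorin and biglycan also bind growth factors and cell surface receptors. In connective tissue, fibroblasts are a main source of these proteins.

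A library held 5394356 to 26513073 reads on genes. The 12 endothelial markers summed to 2429 to 4557 normalized counts in EVP libraries, 6175 to 79337 in TA libraries and 110813 to 175922 in D libraries. *Pecam1*, which encodes CD31, averaged 260 ± 204 normalized counts (SD, n = 5) over EVP libraries, 6242 ± 5780 over TA and 24244 ± 5169 over D. For *Kdr*, which encodes VEGFR2, the means were 412 ± 273, 4200 ± 3513 and 19832 ± 5180 in the same order. Mean *Pecam1* followed the CD31 gates, but TA replicate 5 (372) lay inside the EVP range of 119 to 613. Mean *Kdr* was 10.2-fold higher in TA than in EVP, although both gates were low for VEGFR2. TA replicate 5 (408) lay inside the EVP range for *Kdr* too. The EVP libraries held little transcript of most of the endothelial list. *Tek* was the 1 marker of 12 not called between EVP and D (1578 ± 747 against 2379 ± 681, limma adjusted p = 0.322). The 12 fibroblast markers, none of them a member of the family, summed to 782958 to 1348551 in EVP, 180250 to 597526 in TA and 1044 to 4237 in D. All 12 passed the test as higher in EVP than in D, against 11.6% of tested genes. Their part in the results on the family was not tested. In sorted bulk RNA, fewer cells of a type and less RNA per cell cannot be told apart.

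All coordinates are those of the deposited table on GRCm38, and each equals the gene body in the annotation. *Dcn* lies at chr10:97479609-97518143 and *Lum* at chr10:97565128-97572703, both on the plus strand, followed by the relatives *Kera* and *Epyc*. *Aspn* (chr13:49544443-49567565), *Omd* (chr13:49582462-49592822) and *Ogn* (chr13:49608046-49624501) lie on the plus strand of chromosome 13, downstream of the relative *Ecm2* and all inside *Cenpp*, a centromere protein gene on the minus strand. *Prelp* (chr1:133910304-133921414, minus strand) and *Fmod* (chr1:134037254-134048277, plus strand) share a stretch of chromosome 1 with the relative *Optc*. *Bgn* lies at chrX:73483602-73495933 on the plus strand, and *Podn* at chr4:108014791-108096445 on the minus strand, its gene body overlapping *Scp2*.

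Promoter windows from RefSeq (GRCm38.p6), 250 bases before and 50 bases after a gene's start, matched 7 of the 9 members, with 8 windows because *Podn* has a pair. The windows of 4 genes are shown: *Bgn* and *Aspn*, whose values deviated together within populations, and *Ogn* and *Prelp*, whose EVP and TA libraries did not overlap. Capitals mark matches on either strand to the TATA box, to the box named after the letters CCAAT, or to the GC box. The windows are *Bgn* at chrX:73483351-73483650 (plus strand, 63.7% GC), *Aspn* at chr13:49544193-49544492 (plus strand, 31% GC), *Ogn* at chr13:49607765-49608064 (plus strand, 42.3% GC) and *Prelp* at chr1:133921352-133921651 (minus strand, 55.3% GC).
Bgn: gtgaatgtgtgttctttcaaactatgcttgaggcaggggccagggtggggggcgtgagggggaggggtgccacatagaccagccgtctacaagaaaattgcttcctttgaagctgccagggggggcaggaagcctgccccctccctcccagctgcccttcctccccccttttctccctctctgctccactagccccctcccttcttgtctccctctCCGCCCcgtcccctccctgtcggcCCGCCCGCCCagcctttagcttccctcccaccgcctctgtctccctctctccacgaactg
Aspn: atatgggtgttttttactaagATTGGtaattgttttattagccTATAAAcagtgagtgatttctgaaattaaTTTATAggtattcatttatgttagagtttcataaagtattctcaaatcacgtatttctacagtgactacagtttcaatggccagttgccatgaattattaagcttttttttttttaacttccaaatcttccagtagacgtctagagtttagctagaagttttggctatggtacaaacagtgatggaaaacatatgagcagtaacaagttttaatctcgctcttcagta
Ogn: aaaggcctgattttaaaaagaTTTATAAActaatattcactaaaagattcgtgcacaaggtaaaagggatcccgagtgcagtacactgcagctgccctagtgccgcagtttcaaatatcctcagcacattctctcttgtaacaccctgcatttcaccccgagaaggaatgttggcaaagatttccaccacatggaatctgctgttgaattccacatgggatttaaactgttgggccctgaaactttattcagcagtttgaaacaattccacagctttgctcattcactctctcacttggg
Prelp: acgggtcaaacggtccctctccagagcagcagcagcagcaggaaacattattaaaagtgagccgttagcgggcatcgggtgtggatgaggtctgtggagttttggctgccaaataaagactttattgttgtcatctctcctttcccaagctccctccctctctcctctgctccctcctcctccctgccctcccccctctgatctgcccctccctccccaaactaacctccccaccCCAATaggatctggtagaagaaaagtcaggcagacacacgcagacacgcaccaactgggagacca

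The TATA box (TATAAA) was found in the windows of *Aspn* and *Ogn* and in 13.6% of all 32851 windows of the same length. The GC box (GGGCGG) was found in *Bgn*, with 3 matches of which a pair overlaps, and in 1 of the *Podn* windows, against 35.7% of all windows. The letters CCAAT were found in *Aspn*, *Fmod* and *Prelp*, against 37.4%. The E box (CANNTG) was found in 7 of the 8 member windows, against 72.3%. The AP-1 site (TGANTCA) was in 0 of the 8, against 7.81%. These are matches of letters in a window and were not tested for binding.

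The family was a measurable part of the EVP transcriptome and a trace of that of D. Its 9 genes took 0.765% to 1.75% of all reads on genes in EVP libraries (lowest 0.765%, 95% Wilson interval 0.758 to 0.773%). In TA libraries they took 0.201% to 0.768%, and the highest, TA replicate 2, was at 0.768% (0.764 to 0.772%). In D libraries they took 0.00752% to 0.0127%, or 1124 to 3370 reads. The intervals cover counting error only. The populations were ordered EVP, TA, D in mean share (1.22 ± 0.429%, 0.456 ± 0.231% and 0.00969 ± 0.00191%, SD, n = 5 each), with 1 TA library just above the lowest EVP library and no D library near either. The lowest EVP library, replicate 1, had 10.6% of its reads on the predicted gene *Gm10800*, against 0.274% in TA replicate 2. The shares count those reads in the total.

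**Figure D1:**
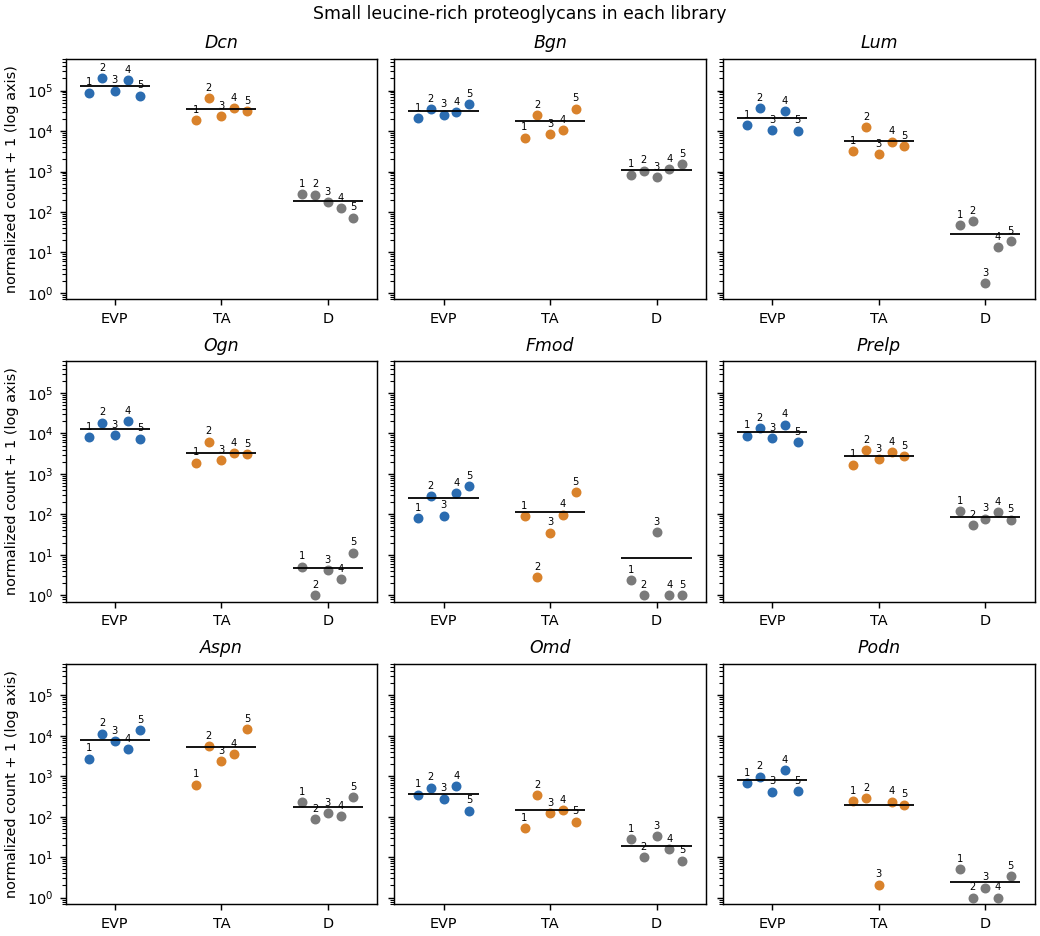
Normalized counts + 1 of the 9 genes (log vertical axis) in each library of EVP, TA and D. Points are libraries, numbered by replicate, and black lines are population means (n = 5). Every EVP library of every gene sits above every D library, while *Dcn*, *Ogn*, *Prelp* and *Podn* are the members whose EVP and TA libraries do not overlap.

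*Dcn*, a binder of collagen fibrils, had the highest mean level per exon length of the family in EVP and TA. Its normalized counts were 89543, 199192, 99854, 181354 and 75072 in EVP replicates 1 to 5. In TA replicates 1 to 5 they were 18834, 63916, 23502, 36676 and 30401. The D libraries held 270, 266, 177, 126 and 71.3. All libraries of the 3 populations separated without overlap, and the mean was 708-fold higher in EVP than in D and 3.72-fold higher in EVP than in TA. The log2 fold changes were 9.51 ± 0.39 (SE, limma adjusted p = 5.3e-11) for EVP vs D and 1.92 ± 0.39 (adjusted p = 0.0107) for EVP vs TA.

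*Bgn*, the closest relative of decorin and a ligand of innate immune receptors, had smaller folds. EVP replicates 1 to 5 held 20473, 35246, 25337, 29871 and 47016. TA replicates held 6875, 24665, 8410, 10463 and 35903, so that TA replicates 2 and 5 lay within the EVP range. The D libraries held 836, 1056, 724, 1157 and 1544, all below the lowest TA library. The mean was 29.7-fold higher in EVP than in D (log2 fold change 4.88 ± 0.38, limma adjusted p = 6.2e-08) and 1.83-fold higher than in TA, where the log2 fold change of 1.12 ± 0.38 missed the threshold (adjusted p = 0.133). Without TA replicate 5, the TA mean was 12603 ± 8174 (n = 4) and the difference from EVP passed (log2 1.46, adjusted p = 0.0157).

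*Aspn*, which lacks a glycosaminoglycan chain and is known as an inhibitor of TGF-beta signaling, varied more than the other class I members. The EVP libraries held 2718, 11305, 7268, 4597 and 14115, and the TA libraries 622, 5445, 2421, 3458 and 14521. TA replicate 5 was thus the highest of all 15 libraries. The D libraries held 233, 87.4, 123, 102 and 310. The mean was 46.7-fold higher in EVP than in D (log2 fold change 5.48 ± 0.65, limma adjusted p = 6.4e-06) and 1.51-fold higher in EVP than in TA (log2 1.03 ± 0.65, adjusted p = 0.521), and without TA replicate 5 the EVP mean was 2.68-fold that of TA.

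*Lum*, a keratan sulfate proteoglycan of cornea and skin, had the highest level per exon length of the class II members. Its EVP libraries held 14006, 37406, 10345, 31572 and 10241, its TA libraries 3258, 12588, 2638, 5479 and 4256, and its D libraries 46.7, 57.1, 0.782, 12.8 and 18.1. EVP and TA overlapped through TA replicate 2, and the D libraries ranged from 1 read to 70 reads. Between EVP and D the log2 fold change was 10.05 ± 0.74 (limma adjusted p = 2.6e-08), and without D replicate 3, the library with 1 read, it was 9.24. Between EVP and TA the difference missed the threshold (adjusted p = 0.199), and it passed without D replicate 3 (0.0486).

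*Prelp*, which anchors basement membranes to connective tissue, was the member with the smallest standard error. EVP libraries held 8788, 13767, 7638, 16570 and 6045, TA libraries 1696, 3934, 2352, 3462 and 2713, and D libraries 119, 53.1, 77.4, 110 and 73.1. The 3 populations did not overlap. The mean was 122-fold higher in EVP than in D (log2 fold change 6.87 ± 0.30, limma adjusted p = 1.3e-10) and 3.73-fold higher than in TA (1.86 ± 0.30, adjusted p = 0.0035). Of its exon bases, 9.68% are shared with *Gm15851* on the opposite strand, and the protocol gives no strand, but *Gm15851* itself reached no more than 7.84 normalized counts in any library.

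*Fmod*, a collagen fibril binder of tendon and cartilage, was the least even member. EVP libraries held 80.8, 287, 92.4, 328 and 507, and TA libraries 89.6, 1.76, 34.6, 97.2 and 347. In D, replicates 2, 4 and 5 had no read and replicate 1 had 1 read, while replicate 3 had 35.2 normalized counts from 45 reads. A count of 0 allows up to 3 reads, which is 2.45, 2.25 and 1.81 normalized counts in D replicates 2, 4 and 5. The log2 fold change was 6.40 ± 1.18 for EVP vs D (limma adjusted p = 6.1e-04) and 4.35 ± 1.18 for TA vs D (adjusted p = 0.0201). Without D replicate 3 these were 7.37 and 5.32, and without TA replicate 2 the latter was 5.39. The difference between TA and D was lost in 10 of 29 alternatives, among them without TA replicate 5 (log2 3.65, adjusted p = 0.0604) and without D replicate 2 (0.0546), 4 (0.0567) or 5 (0.0552).

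*Omd*, an acidic member known from bone matrix, had at most 570 normalized counts in any library. EVP libraries held 351, 524, 281, 570 and 140, TA libraries 51.7, 344, 119, 148 and 74.7, and D libraries 27.5, 8.98, 32, 15 and 7.25. EVP and TA overlapped, and neither overlapped D. Its EVP to D difference was the smallest of the family (log2 fold change 4.34 ± 0.55, limma adjusted p = 1.3e-05).

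*Ogn*, known from bone and from the vessel wall, had the largest difference between EVP and D. EVP libraries held 8279, 18424, 8935, 20225 and 7482 and TA libraries 1906, 6308, 2169, 3309 and 3129. The D libraries held 4.12, 0, 3.13, 1.5 and 10.3, from 3, 0, 4, 2 and 17 reads. The log2 fold change was 11.65 ± 0.52 for EVP vs D (limma adjusted p = 1.3e-10) and 9.74 ± 0.52 for TA vs D. Between EVP and TA the libraries did not overlap, the mean was 3.77-fold higher in EVP, and the log2 fold change of 1.92 ± 0.52 lay at the threshold (adjusted p = 0.0501). It passed without TA replicate 2 (0.0314) or EVP replicate 5 (0.0499), and also without D replicate 2 (0.0188) or 5 (0.0278), which enter the shared estimate of the spread.

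*Podn*, a member known from smooth muscle, had EVP values of 674, 980, 416, 1443 and 425 and TA values of 243, 293, 1.12, 235 and 198, with TA replicate 3 at 1 read. The D libraries held 4.12, 0, 0.782, 0 and 2.42, and 4 of the 5 were at or under 3 reads. The log2 fold change was 8.46 ± 1.07 for EVP vs D (limma adjusted p = 1.3e-05) and 2.91 ± 1.07 for EVP vs TA (adjusted p = 0.170). Without TA replicate 3 the EVP vs TA log2 fold change was 1.54 (adjusted p = 0.169), and the ratio of the means went from 4.06-fold to 3.25-fold. The TA vs D log2 fold change was 5.55 with that library and 6.92 without it.

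Between EVP and D, all 9 members passed the limma test as higher in EVP, where 11.6% of the 25549 tested genes did. All 9 had every EVP library above every D library, against 10.2% of the tested genes. The median log2 fold change of the 9 was 6.87, beside 0.46 over all tested genes. Between TA and D, all 9 again passed as higher in TA, against 8.21% of tested genes, and 7 had every TA library above every D library, against 5.56%. *Fmod* and *Podn* were the members that overlapped there. The log2 fold change between TA and D ran from 2.86 for *Omd* to 9.74 for *Ogn*, and its median over the members was 5.01, beside 0.24 over all tested genes. The EVP vs D and TA vs D comparisons share the D libraries.

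Between EVP and TA, the estimates were smaller and fewer members passed. *Prelp* and *Dcn* were called, which is 2 of 9 members against 1.56% of tested genes. *Dcn*, *Prelp*, *Ogn* and *Podn* had every EVP library above every TA library, 4 of 9 against 2.70%. The median log2 fold change was 1.89, beside 0.085 over all tested genes, and all 9 estimates were above 0. The adjusted p of the 7 members that were not called ran from 0.0501 (*Ogn*) to 0.521 (*Aspn*), with 0.175 for *Omd* and 0.458 for *Fmod*. The count depended on the libraries used, since no member passed without replicate 1 of every population (*Dcn* adjusted p = 0.0866, *Prelp* 0.0562), when 5 of the 9 had an unadjusted limma p under 0.05. Calls over all 25549 tested genes fell there as well, with 45 higher in EVP than in TA against 398 with all libraries. Without replicate 5 of every population, 4 members passed, when 412 of the tested genes passed as higher in EVP. Replicate 1 libraries stood apart in depth and in the share of reads on the predicted gene *Gm10800*, which was 10.6% in EVP, 8.69% in TA and 8.5% in D and at most 0.701% in the other libraries.

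**Figure D2:**
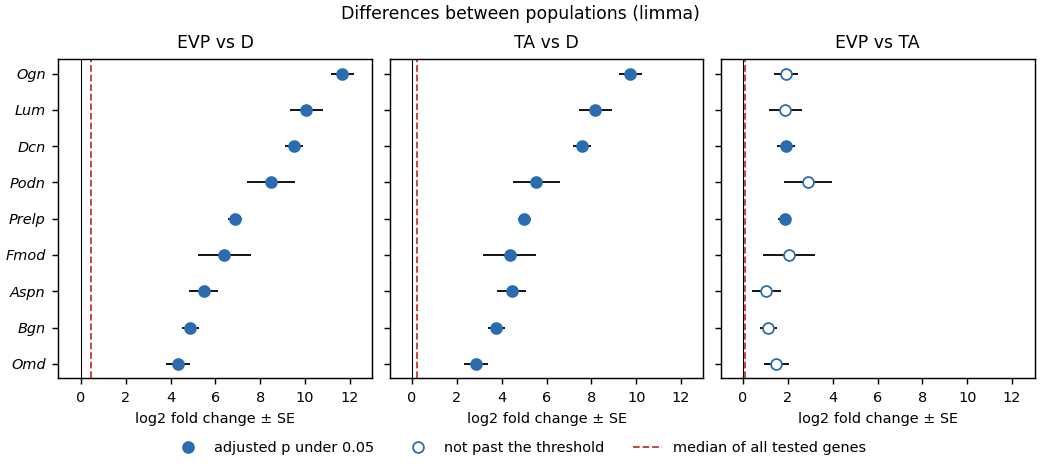
Log2 fold change ± SE (horizontal axis) of the 9 genes in limma for EVP vs D, TA vs D and EVP vs TA. Filled points have an adjusted p under 0.05, open points do not, and the dashed line is the median of all tested genes (0.46, 0.24 and 0.085). *Ogn*, *Lum* and *Dcn* lie farthest to the right in both comparisons with D, and *Dcn* and *Prelp* are the filled points between EVP and TA.

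The TA means lay nearer to EVP than to D on the log scale for each member. The step from EVP to TA made up 16.4% of the log2 difference between EVP and D for *Ogn*, the lowest, 34.2% for *Omd* and 34.4% for *Podn*. Without TA replicate 3 it was 18.2% for *Podn*, and without TA replicate 5 it was 43.0% for *Fmod*. As a share of the EVP mean, the TA mean was 26.9% for *Dcn*, 27.2% for *Lum*, 26.6% for *Ogn*, 26.8% for *Prelp* and 24.6% for *Podn*. It was higher for *Omd* (39.5%), *Fmod* (44.1%), *Bgn* (54.7%) and *Aspn* (66.2%). Without TA replicate 5 the shares of *Bgn*, *Aspn* and *Omd* were 39.9%, 37.3% and 44.4%, and that of *Fmod* was 21.5%, below those of the first 5 genes. The fibroblast markers moved in the same populations. Of the 12, 6 passed as higher in EVP than in TA, against 1.56% of tested genes, with a median log2 fold change of 1.82. Of the 12 endothelial markers, 9 passed as higher in TA, against 1.94% of tested genes.

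Per kilobase of exon, which allows levels of different genes to be compared, the order in EVP was *Dcn* (22097 ± 9759 normalized counts per kb), *Lum* (8462 ± 5242), *Bgn* (5179 ± 1674), *Ogn* (4937 ± 2389), *Aspn* (3399 ± 1996) and *Prelp* (2922 ± 1225). *Podn* (184 ± 101), *Omd* (166 ± 78.5) and *Fmod* (78.4 ± 53.8) followed at a distance. Neighbors from *Lum* to *Prelp* in this order differed by less than the spread between libraries. In D the order was headed by *Bgn* (174 ± 52.3 per kb) and *Aspn* (72.7 ± 41.0), with *Dcn* (31.2 ± 14.9) and *Prelp* (24.0 ± 7.62) behind them and *Ogn* (1.48 ± 1.54) and *Podn* (0.343 ± 0.417) last.

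The largest member of the family was not the same gene in each population. *Dcn* made up 46.1 ± 5.67% of the family's summed counts per kb in EVP, 39.9 ± 8.65% in TA and 10.2 ± 5.06% in D. *Bgn* made up 12.0 ± 5.67%, 17.2 ± 6.09% and 53.4 ± 9.88%, so that the lowest D library (39.2%) lay above the highest TA library (27.8%). *Ogn* made up 10.2 ± 1.47% in EVP and 0.414 ± 0.349% in D. The shares of *Prelp* overlapped in all 3 populations (6.20 ± 1.25%, 5.62 ± 1.65% and 7.58 ± 2.61%). Among EVP and TA libraries, both replicates 5 had the lowest *Dcn* share of their population, 36.1% and 24.6%.

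**Figure D3:**
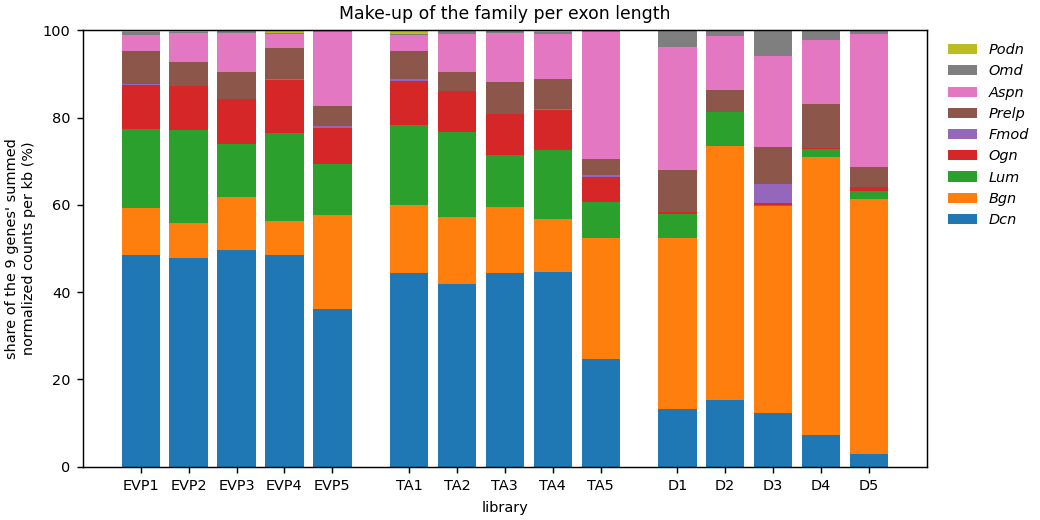
Share of each gene in the summed normalized counts per kb of the 9 genes (vertical axis, %) in each of the 15 libraries. *Dcn* is the largest part in EVP and in TA replicates 1 to 4, *Aspn* the largest in TA replicate 5, and *Bgn* in all 5 D libraries.

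To compare the most similar pair directly, the log2 ratio of *Bgn* to *Dcn* was computed in each library from normalized counts + 1. It was -2.13, -2.50, -1.98, -2.60 and -0.68 in EVP replicates 1 to 5. The TA libraries gave -1.45, -1.37, -1.48, -1.81 and 0.24, and the D libraries 1.62, 1.99, 2.02, 3.19 and 4.42. No D library overlapped EVP or TA. The mean was -1.98 ± 0.77 in EVP, -1.18 ± 0.81 in TA and 2.65 ± 1.15 in D. The difference was -4.62 for EVP vs D and -3.82 for TA vs D (two-sided exact permutation test, p = 0.00794 each, the smallest this design allows, adjusted over 3 comparisons 0.0119). Between EVP and TA it was -0.80 (exact permutation test, adjusted p = 0.167). Without EVP replicate 5 it was -1.13 (exact permutation test, adjusted p = 0.0159), and without TA replicate 5 it was -0.45. Of 15 alternatives, 1 took it past the threshold and 14 did not.

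Within populations the members did not all move together. After the population means were removed, the log2 values of *Bgn* and *Aspn* had a Pearson r of 0.82 over the 15 libraries, *Prelp* and *Omd* 0.79, *Dcn* and *Omd* 0.74, *Ogn* and *Prelp* 0.63, *Dcn* and *Prelp* 0.60 and *Dcn* and *Lum* 0.54. *Bgn* and *Dcn* had 0.13, and *Lum* and *Fmod* had -0.57. These values describe libraries that share depth and preparation, and carry no test. EVP replicates 2 and 4 were the highest of their population for *Dcn*, *Lum*, *Ogn*, *Prelp*, *Omd* and *Podn*. TA replicate 2 was the highest TA library for the same 6 genes. For *Bgn* and *Aspn* the highest library was replicate 5 in each population.

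Of the mural markers, *Rgs5*, a defining marker of pericytes chosen for display after its values were seen, was also highest in replicate 5 of each population. It had 7377 normalized counts in EVP replicate 5 against 520 to 3438 in the other EVP libraries, 85852 in TA replicate 5 against 1029 to 25309 and 4625 in D replicate 5 against 994 to 1953. The 10 mural markers (pericyte and smooth muscle genes) summed to 5292 to 29240 in EVP, 5545 to 146836 in TA and 5069 to 10792 in D. The sum was highest in replicate 5 of EVP and of TA, but in D it was highest in replicate 4, with 10261 in replicate 3 and 10183 in replicate 5. TA replicate 5 also had the lowest *Pecam1* of its population, 372 normalized counts against 3137 to 15414. The part of mural transcripts in the values of *Bgn* and *Aspn* was not tested. Without the pair of TA libraries with the highest mural sums (replicates 4 and 5), 8 of 9 members passed between TA and D, where *Fmod* was lost (limma adjusted p = 0.150). In that fit, 1783 of 25549 tested genes passed as higher in TA than in D. Between EVP and TA, *Dcn*, *Prelp* and *Bgn* passed without that pair (limma adjusted p = 0.0239, 0.00485 and 0.0356), when 689 of 25549 tested genes passed as higher in EVP.

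**Figure D4:**
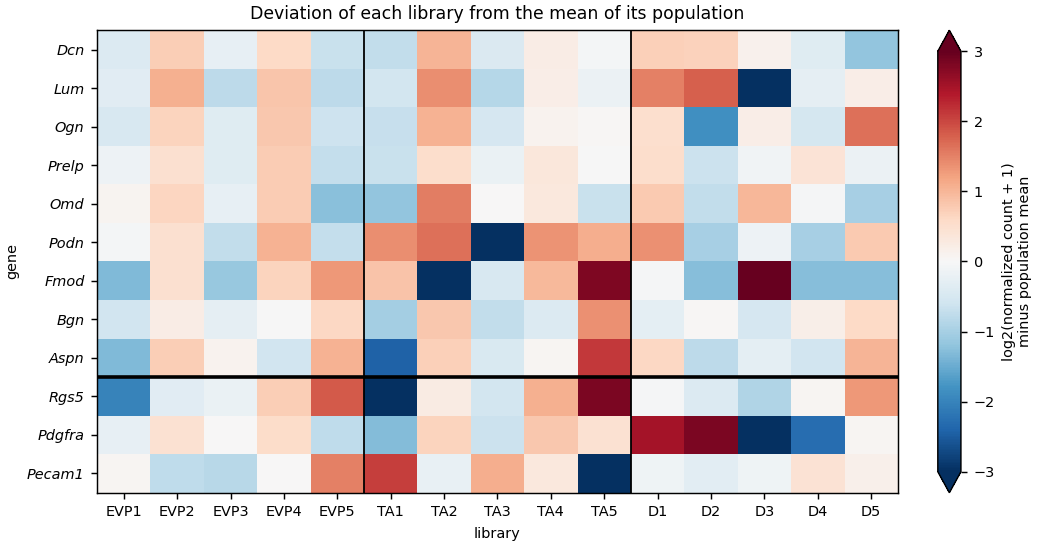
Deviation of each library (columns) from the mean of its population in log2(normalized count + 1) for the 9 genes and, under the line, *Rgs5*, *Pdgfra* and *Pecam1* (color scale, clipped at the ends of the bar). *Dcn*, *Lum*, *Ogn*, *Prelp* and *Omd* are above their mean in EVP replicates 2 and 4, and *Bgn*, *Aspn* and *Rgs5* are above theirs in replicate 5 of all 3 populations.

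Leukocyte markers (10 genes) summed to 2393 to 11135 in EVP, 6812 to 41406 in TA and 3214 to 9624 in D, and 1 of 10 (*Csf1r*) passed as higher in EVP than in D. Melanoma markers (7 genes) summed to 29776 to 67410, 69334 to 176152 and 18213 to 47920, and 1 of 7 (*Mitf*) passed as higher in EVP than in D. Both counts are near the share of all tested genes that passed as higher in EVP than in D, 11.6%. The median sums of both lists were highest in TA, where the family was intermediate. Between TA and D, 4 of 10 leukocyte and 7 of 7 melanoma markers passed as higher in TA, against 8.21% of tested genes. Between EVP and TA, 3 of 10 leukocyte and 3 of 7 melanoma markers passed as higher in TA, against 1.94%. Tendon, cartilage and bone genes were low. Of the 5 tested, 3 passed as higher in EVP than in D: *Runx2* (276 ± 105 against 8.51 ± 19.0 normalized counts), *Mkx* (88.1 ± 55.2 against 0.824 ± 1.84) and *Tnmd* (101 ± 57.7 against 7.21 ± 13.9). *Scx* had a mean of 1.69 in EVP and *Bglap* 0.302. The part of these lists in the family's values was not tested.

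In the genomic clusters, *Kera*, *Epyc* and *Optc* had lower mean levels per kb than any member beside them in EVP, and the mean of *Ecm2* was below that of *Omd* there and above it in D. On chromosome 10, *Dcn* and *Lum* had EVP means of 22097 and 8462 normalized counts per kb, while the mean of *Kera*, a corneal keratan sulfate proteoglycan, was 8.43 ± 15.2 per kb. *Kera* had 80.8, 5.23, 0, 7.99 and 2.07 normalized counts in the EVP libraries and 67.2 and 12.4 in TA and D replicate 1, and no more than 7.81 in any other TA or D library. *Epyc*, a cartilage member, was likewise highest in replicate 1 of each population (193, 86.2 and 57.7), and 40.6% of its exon bases are shared with a gene on the other strand. On chromosome 13, *Ecm2*, a matrix protein with leucine-rich repeats, had 108, 70.6 and 51.8 normalized counts per kb in EVP, TA and D, where *Omd* had 166, 65.6 and 8.07. Its mean normalized counts were 612 (EVP), 401 (TA) and 294 (D) (EVP vs D log2 fold change 1.05 ± 0.44, limma adjusted p = 0.119). On chromosome 1, *Optc* had no more than 18.5 normalized counts in any library.

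*Cenpp*, whose gene body spans *Ecm2*, *Aspn*, *Omd* and *Ogn* on the other strand, had mean normalized counts of 132 ± 61.2 (EVP), 173 ± 90.5 (TA) and 151 ± 14.1 (D) (EVP vs D log2 fold change -0.34 ± 0.40, limma adjusted p = 0.691). Reads of the members and of *Cenpp* cannot be told apart by strand here, but 7 exon bases of *Aspn* and none of *Omd* or *Ogn* are shared with exons of another gene. *Scp2*, which overlaps the gene body of *Podn* without sharing exon bases, had 927 ± 161 in EVP and 984 ± 75.0 in D (log2 -0.10 ± 0.16, adjusted p = 0.773). Neither gene passed the test in any of the 3 comparisons.

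**Figure D5:**
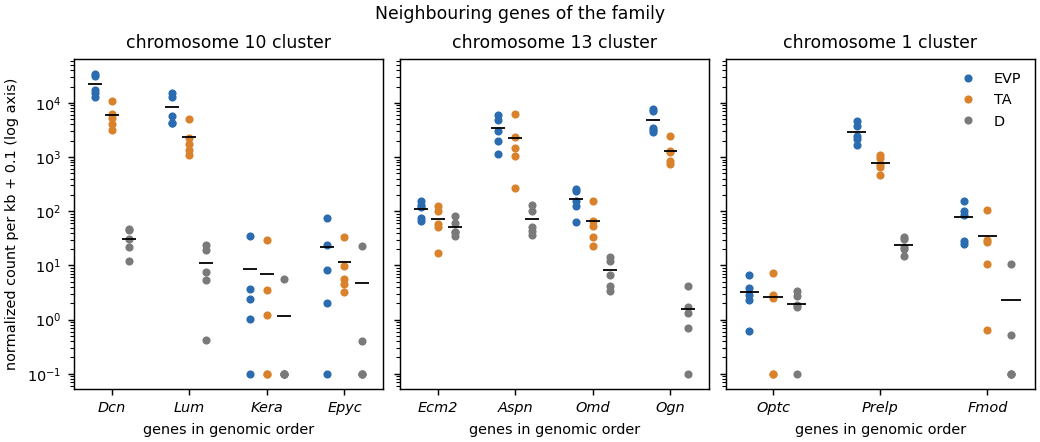
Normalized counts per kb of exon + 0.1 (log vertical axis) of family members and their relatives in genomic order on chromosomes 10, 13 and 1. Points are libraries and black lines population means (n = 5). The means of *Kera*, *Epyc* and *Optc* lie below those of *Omd* in each population, while *Ecm2* lies near *Omd* in EVP and TA and above it in D.

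Of the 9 relatives listed, 7 were tested and 3 passed as higher in EVP than in D, against 11.6% of tested genes. *Tsku*, a secreted leucine-rich repeat protein that binds TGF-beta, had 743 ± 178 in EVP, 250 ± 137 in TA and 75.1 ± 23.6 in D, and it passed in all 3 comparisons (EVP vs TA log2 fold change 1.69 ± 0.35, limma adjusted p = 0.0124). *Chadl* had 47.0 ± 12.9 in EVP and 3.70 ± 2.78 in D. *Podnl1*, the closest relative of podocan, had 61.8 ± 66.4 in EVP and 2.32 ± 3.51 in D, and its highest EVP and TA libraries were both replicate 5 (180 and 168). The median log2 fold change of the relatives was 2.77, beside 6.87 for the 9 members.

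Among the enzymes that build the chains, genes passed in both directions. Across all tested genes, 11.6% passed as higher in EVP than in D and 7.46% as higher in D, the shares beside this list and those that follow. Of 22 genes for chondroitin and dermatan sulfate, 5 passed as higher in EVP than in D, 3 as higher in D and 14 did not pass, with a median log2 fold change of 0.27. *Chpf*, a chondroitin polymerizing factor, was 28.3-fold higher in EVP (1635 ± 365 against 57.7 ± 47.2), *Dse*, the epimerase that turns chondroitin into dermatan sulfate, 19.8-fold (2505 ± 423 against 126 ± 56.2) and *Ust*, a uronyl sulfotransferase, 19.3-fold. *Chst7*, *Chst15* and *Xylt1*, a pair of sulfotransferases and the enzyme that starts the chain, were 13.3-, 9.07- and 3.07-fold higher in D. For keratan sulfate, 4 of 6 tested genes passed as higher in D and 1 as higher in EVP, with a median log2 fold change of -2.45. Those higher in D were led by *Chst1* (604 ± 285 against 62.4 ± 19.7 in EVP), *Chst2* (2774 ± 776 against 361 ± 149) and *B4galt4* (1896 ± 373 against 303 ± 71.0). *B4galt1*, the gene higher in EVP, was 2.95-fold higher in EVP.

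Most collagens that form fibrils or lie on or beside them were also higher in EVP. Of 16 such genes, *Col6a1*, *Col6a2* and *Col6a3* among them, 14 passed as higher in EVP than in D, against 11.6% of tested genes. None passed as higher in D, and the median log2 fold change was 6.65. *Col3a1* had 426058 ± 133223 in EVP and 882 ± 492 in D, *Col1a2* 152848 ± 29284 and 444 ± 328, and *Col14a1* 12871 ± 5640 and 39.9 ± 34.5. Between EVP and TA, 4 of the 16 passed as higher in EVP, against 1.56% of tested genes. In the correlation over all 15 libraries, the genes most like *Bgn* were *Col6a3* (r = 0.989), *Col6a2* (0.987) and *Col6a1* (0.987), those most like *Ogn* were *AC133156.2* (0.992), *Col1a1* (0.988) and *Col1a2* (0.988), and the gene most like *Lum* was *Col14a1* (0.995), before *Gpc3* and *Igfbp6*.

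For the remaining members the most similar genes were *Dpt* (r = 0.997), *Efemp1* and *Cpxm1* for *Dcn*, and *Scara5* (0.995), *Emilin2* and *Apod* for *Prelp*. *Aspn* was most like *Ndufa4l2* (0.975), *Mmp10* and *Col6a1*, *Omd* most like *Olfml1* (0.985), *Oas2* and *Ifi27l2a*, and *Podn* most like *Gm46323* (0.986), *Wnt2* and *Gm8773*. *Fmod* had the weakest likeness, with *Plekha2* (0.941), *Lgi4* and *Creb3l3*. These correlations are descriptions over 15 libraries that fall into 3 populations, and no member was among the 3 genes most like another member.

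Growth factors and receptors of the family were split. Of 7 growth factor genes, 3 passed as higher in EVP than in D (*Tgfb3*, 801 ± 476 against 46.9 ± 30.5, *Tgfb2* and *Wisp1*) and *Tgfb1* as higher in D (146 ± 66.9 against 36.1 ± 19.7). Of 10 receptor genes, 4 passed as higher in EVP, led by *Egfr*, a decorin receptor (3060 ± 875 against 20.4 ± 24.5), *Lrp1*, an endocytic receptor (8347 ± 2386 against 192 ± 42.7), and *Cd44* (6750 ± 954 against 647 ± 289). *Kdr*, used in the sort, and *P2rx7* passed as higher in D. *Tlr2* and *Tlr4*, receptors of soluble biglycan, did not pass (271 against 110 and 437 against 628, adjusted p = 0.0960 and 0.265).

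Of 8 tested proteases that process or cleave the family, 4 passed as higher in EVP than in D and 2 as higher in D. *Mmp3* had 30946 ± 17334 in EVP and 83.6 ± 98.5 in D, *Mmp2* 16636 ± 5889 and 240 ± 172, and *Adamts5* 10565 ± 4550 and 541 ± 214. *Bmp1*, which cleaves the propeptides of biglycan and of collagens, was 4.73-fold higher in EVP, and its relative *Tll1* (415 ± 160 against 104 ± 118) and *Adamts4* (2.36-fold) were higher in D. *Mmp14* did not pass (log2 fold change 0.42, adjusted p = 0.227).

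Other proteoglycans of the surface and matrix went both ways. Of 21 tested, 12 passed as higher in EVP and 4 as higher in D. *Gpc3*, a glypican (7072 ± 3921 against 18.7 ± 14.3), *Prg4*, known as lubricin (4975 ± 2615 against 28.3 ± 23.2), and *Vcan*, the large matrix proteoglycan versican (5803 ± 1513 against 45.1 ± 41.5), led those higher in EVP. *Esm1*, known as endocan and made by endothelial cells (21373 ± 4516 in D against 306 ± 247 in EVP), *Srgn*, the intracellular serglycin (4792 ± 892 against 1107 ± 487), and *Sdc3* (1375 ± 405 against 442 ± 69.1) led those higher in D. The list's median log2 fold change was 3.04, against 6.87 for the small leucine-rich members and 0.46 for all tested genes.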

How the data were processed

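The data were 15 RNA sequencing libraries, with 5 per population (EVP, TA and D). The authors prepared libraries with a modified Smart-Seq2 protocol without molecular identifiers, aligned reads with STAR 2.5.3a to GRCm38 with Ensembl release 91 annotation, counted them per gene with HTSeq-count and divided the counts by DESeq2 1.10.1 size factors (version numbers per the submitters' processing notes). The deposited normalized counts are signal values with 1 size factor per library. Dividing each library by its smallest value above 0 gave whole reads (tolerance 0.01) for 100% of values. Tables of the authors' own comparisons hold fold changes and p-values and were not used. No per-sample column was left unmapped.

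The members and lists were chosen with earlier results of these data known. Log2(normalized count + 1) of 25549 genes (mean normalized count of 5 or more) was analyzed with limma 3.58.1 in R 4.3.3 (1 coefficient per population, all 15 libraries, trend, two-sided, Benjamini-Hochberg adjusted p under 0.05). Log2 fold changes are on that scale, which understates changes of low genes, whereas folds compare mean normalized counts. An error after ± is an SD unless SE is stated. Reads per library ranged from 5394356 to 26513073, with 3 reads as the floor, and 95% Wilson intervals cover counting error only. The *Bgn* to *Dcn* ratio was compared with an exact permutation test in scipy 1.17.1. Exon lengths are unions of annotated exons, which matched 99.8% of genes. Sequences came from RefSeq (GRCm38.p6). Proteins were not analysed here.

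Genes outside the family are named if they lead a list (up to 3 past the threshold in each direction between EVP and D), mark a cell type or the sort, overlap or neighbor a member, or are among the 3 most correlated with a member. Others (*Csf1r*, *Mitf*, *Scx*, *Bglap*, *Tlr2*, *Tlr4*, *Bmp1*, *Mmp14*, *Gm10800*) were chosen after their values were seen. *Itgam* was left out because 2 genes carry the name. Alternatives changed the pseudocount, minimum mean, scaling, weights, populations fitted, replicate block and test (edgeR 4.0.16 and DESeq2 1.42.0 on whole reads, with which DESeq2 called 3335 genes higher in EVP than in D and edgeR 2124), and left out each library. Leaving out replicate 5 of every population, or TA replicates 4 and 5, was added after seeing the data. The limma, edgeR and DESeq2 fits were tested on simulated counts for EVP vs D.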

Additional observations from a re-analysis of the deposited data

Results flagged for a closer look

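Of 33 groups of 5 libraries examined, 4 held a library far from the others by Dixon's criterion. Its rate of about 1 in 20 groups by chance holds for normally distributed values. The normalized counts were not put on a log scale for it, so the number flagged cannot be set against that rate. In TA, *Lum* reached 12588 normalized counts in replicate 2, and the next library was at 5479. *Fmod* reached 347.48 in TA replicate 5, with the next library at 97.2. In D, *Fmod* stood at 35.175 in replicate 3 and at 1.37 or less in the other 4 libraries. The log2 ratio of *Bgn* to *Dcn* in TA was 0.24 (0.24002) in replicate 5 and -1.37 or lower in the other 4. The libraries differed in other measures as well: TA replicate 5 had 85852 normalized counts of *Rgs5*, the highest of all libraries, and 372 of *Pecam1*, the lowest of TA. The part of these in the values was not tested.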

How the results depend on the processing

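The number of members higher in EVP than in D was 9 in all 29 alternatives, and that between TA and D was 7 (quantile normalization) to 9. With quantile normalization, 1222 of the tested genes passed as higher in TA than in D, against 2098 in the main fit. Between EVP and TA it was 2, and became 4 with only the 2 populations fitted, 4 with DESeq2 on whole reads, 0 without replicate 1 of every population and 4 without replicate 5 of every population. Over all tested genes, calls as higher in EVP than in TA went from 398 to 387, 844, 45 and 412 in the same order. Without single libraries the number of members ranged from 2 to 3, from 9 to 9 for EVP vs D and from 8 to 9 for TA vs D. Calls over all tested genes, as higher in the first population, ranged from 143 to 578 for EVP vs TA there. They ranged from 2484 to 3137 for EVP vs D and from 1711 to 2414 for TA vs D. No direction was reversed. *Fmod* between TA and D fell below the threshold in 10 of 29 alternatives, with an adjusted p of at most 0.161, *Omd* in 1 (quantile normalization, 0.0714), and *Ogn* passed between EVP and TA in 9. Where fewer libraries entered, the smaller number of samples is part of the alternative, and otherwise the cause was not tested.

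The *Bgn* to *Dcn* log2 difference for EVP vs D was -4.15 and for TA vs D -3.48 as a difference of medians (exact permutation test, adjusted p = 0.0714 each). Leaving out single libraries, it ranged from -4.95 to -4.18 for EVP vs D, from -4.18 to -3.38 for TA vs D and from -1.13 to -0.45 for EVP vs TA. Same-numbered libraries were not treated as pairs, since the labels give no shared animal. Of the 15 correlations of their deviations, 4 were not over 0.1 (range of all 15, -0.14 to 0.69). The other 11 were over 0.1, among them all those of replicates 1, 4 and 5. Likeness between same-numbered libraries is not modeled in the main tests. With the replicate block, the exact p of the ratio was 0.0625 in each comparison, the smallest that 5 sign flips allow. The differences were -4.62 (EVP vs D), -3.82 (TA vs D) and -0.80 (EVP vs TA, lower in EVP in 5 of 5 numbers). With that block, limma called 9, 3 and 9 members for EVP vs D, EVP vs TA and TA vs D. Over all 25549 tested genes, it called 3600, 623 and 2716 as higher in the first population, against 2952, 398 and 2098 without the block. Quantile normalization moved the median log2 fold change of all genes between EVP and D from 0.46 to -0.074. Depth limits *Ogn*, *Fmod* and *Podn* in D, where 3, 4 and 4 of 5 libraries held at most 3 reads.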
